A study of Mus musculus with 6 samples.

Results

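Splenocytes of lupus-prone mice that had carried an implant with 17α-ethinyl estradiol (EE) for 9 weeks were compared, miRNA by miRNA, with splenocytes of mice that had carried an empty implant (placebo). EE is the synthetic estrogen of oral contraceptives and differs from natural 17β-estradiol (E2) by an ethinyl group. All mice were female NZB/WF1 animals, a hybrid strain that develops a spontaneous disease resembling human lupus, and all received their implant at 6 to 7 weeks of age. The comparison used the 2 samples labelled with EE and the 2 labelled as placebo control, 4 of the 6 samples of the series, and the other 2 samples, from mice with an E2 implant, entered the estimate of the spread. The labels give no dose. They also do not state whether each sample is a different mouse or a pool, and p-values here reflect the spread among the deposited samples, which may be technical. A splenocyte sample mixes lymphocytes, myeloid cells, cells of the red cell lineage and some vessel and stromal cells. A difference can therefore come from fewer cells of a type or from less of the miRNA per cell, and these cannot be told apart here.

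miRNAs are short RNAs that guide Argonaute proteins to messenger RNAs. Pairing rests mainly on the seed, bases 2 to 8 of the mature miRNA, so miRNAs with the same seed share many targets. Each is cut from a hairpin precursor with a 5p and a 3p arm, and usually a single arm predominates. Many miRNAs mark a blood lineage. miR-144, miR-451 and miR-486 belong to the red cell lineage, in which these values do not tell precursors from mature red cells. miR-223 belongs to neutrophils and other myeloid cells, and miR-150 to mature lymphocytes. In mice the spleen is also an organ of red cell formation.

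The panel held 566 probes for mouse miRNAs among 626 probes, and 8 negative control probes served as background. Values are normalized nCounter counts, in which colour-coded barcodes are counted on single molecules without amplification. A probe was tested when its mean over all samples was above 53.3, the mean + 2 SD of the negative controls, which left 95 probes and put 471 at or below this detection floor. The tested probes carried 92.5% and 94.1% of the mouse miRNA signal in the EE samples, against 95.2% and 95.5% in the placebo samples. The mean of the negative controls was 25.3 and 23.8 with EE and 27.3 and 19.8 with placebo. The depth of the raw counts is unknown, and with 2 samples a group the number of samples limits the precision.

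Mature sequences were found in the RefSeq tables (build GRCm38.p6) for 69 of the 95 tested probes, 11 under the probe's own name and 58 through an older name, and for 17 of the 25 miRNAs called below. The first set shows some of the called miRNAs for which a sequence was found. None was found for miR-486 and miR-150, which were among the main changes. Capitals mark the seed, and no pair in this set shares one.
miR-144 (3p arm, chr11:78073047-78073066, plus strand): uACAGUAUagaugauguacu
miR-451 (now miR-451a, chr11:78073186-78073207, plus strand): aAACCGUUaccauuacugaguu
miR-223 (3p arm, chrX:96242884-96242905, plus strand): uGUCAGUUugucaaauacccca
miR-126-3p (chr2:26591402-26591423, plus strand): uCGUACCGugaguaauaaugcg
miR-181a (5p arm, chr1:137966468-137966490, plus strand, with a further locus elsewhere): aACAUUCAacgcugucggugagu
miR-342-3p (chr12:108658680-108658702, plus strand): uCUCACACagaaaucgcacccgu

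The second set shows miRNAs that share a seed, of which some passed the test below and some did not.
miR-93 (5p arm, chr5:138165574-138165596, minus strand): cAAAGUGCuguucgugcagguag
miR-106b (5p arm, chr5:138165787-138165807, minus strand): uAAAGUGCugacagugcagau
miR-20a (5p arm, chr14:115044183-115044205, plus strand): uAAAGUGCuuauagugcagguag
miR-15a (5p arm, chr14:61632075-61632096, minus strand): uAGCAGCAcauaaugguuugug
miR-16 (5p arm, chr3:69009918-69009939, plus strand, with a further locus beside miR-15a): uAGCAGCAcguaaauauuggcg
let-7g (5p arm, chr9:106178846-106178867, plus strand): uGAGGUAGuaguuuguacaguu
let-7a (5p arm, chr13:48538239-48538260, minus strand): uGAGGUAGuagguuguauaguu

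With EE, the largest rises among the called miRNAs were those of the red cell miRNAs miR-486, miR-144 and miR-451, and the largest falls those of the lymphocyte miRNAs miR-181a and miR-150. In limma's moderated test, adjusted over 95 probes, 10 miRNAs rose with EE and 15 fell, 10.5% and 15.8% of those tested and 26.3% together. Scaled by ligation controls the calls were 3 higher and 8 lower, and by positive controls 6 and 15. At an unadjusted p under 0.05 the number was 35. Both EE samples lay beyond both placebo samples for all 25 called miRNAs, and for 63.2% of the tested ones (26.3% above and 36.8% below), so that lack of overlap alone sets few miRNAs apart. The median log2 fold change over the 95 was -0.11, with 39 probes above 0 and 56 below. The middle of the distribution was narrow, from -0.38 at the 25th percentile to 0.27 at the 75th, and 4 of the higher and 5 of the lower calls exceeded 1 log2 unit.

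**Figure D1:**
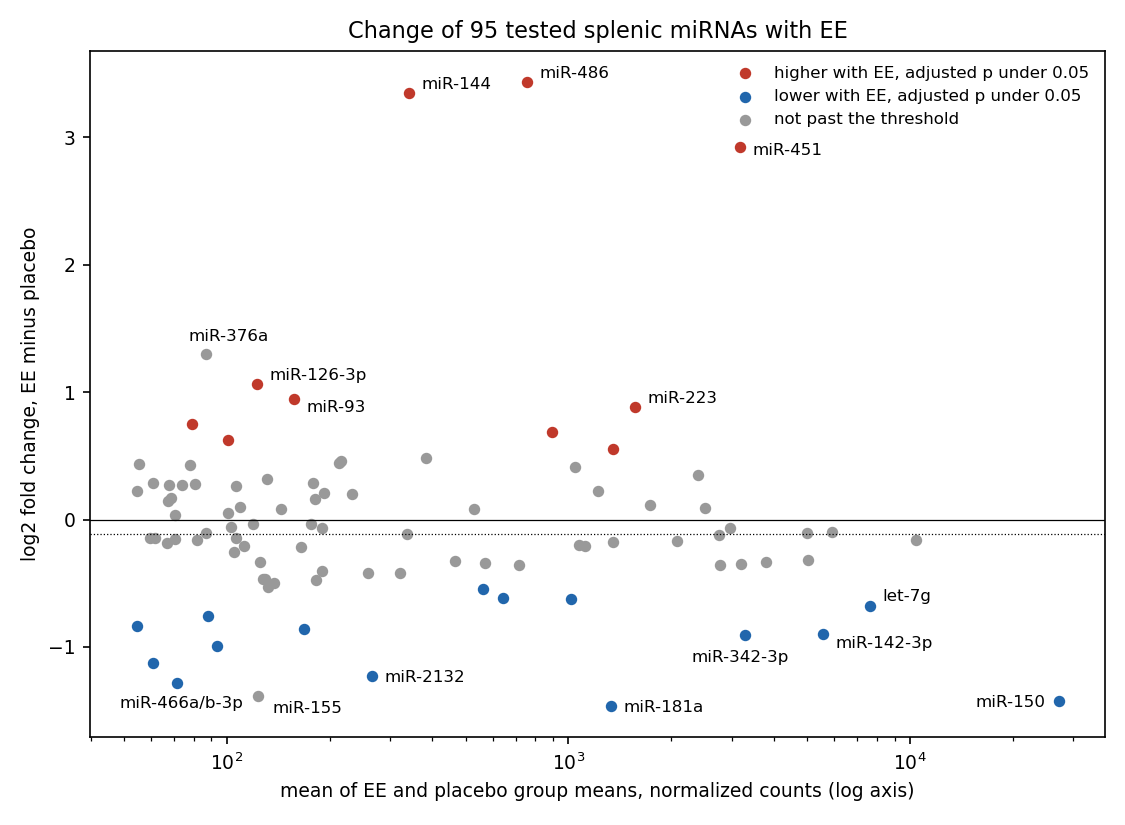
Log2 fold change (EE minus placebo) of the 95 tested miRNAs against the mean of the 2 group means in normalized counts, on a log axis. Each point is a miRNA, coloured by its call, and the dotted line is the median of all 95, at -0.11. miR-486, miR-144 and miR-451 stand above 2.9 and apart from the rest, while the most abundant miRNA, miR-150, lies near the bottom; miR-466a/b-3p names a probe shared by several miR-466 members.

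All 3 red cell miRNAs rose, beside 10.5% of all tested miRNAs, with a median log2 fold change of 3.35. miR-486, which lies within the gene of erythroid ankyrin, Ank1, had 1443 and 1312 normalized counts in the EE samples, against 192 and 83 in the placebo samples. miR-451, which matures without Dicer and is needed for late red cell maturation, had 6060 and 5060 with EE, against 1128 and 468 with placebo. miR-144 had 430 and 815 with EE, against 73 and 45 with placebo, and its second placebo value lay under the detection floor. Both EE samples were far above both placebo samples for all 3. The placebo pair itself differed by 1.20 log2 units for miR-486 and 1.27 for miR-451, against 0.14 and 0.26 for the EE pair, so the sizes of the rises are less certain than their direction. The log2 fold changes were 3.43 ± 0.31 for miR-486 (SE, limma adjusted p 1.34e-05), 3.35 ± 0.30 for miR-144 and 2.93 ± 0.32 for miR-451 (adjusted p 6.36e-05). miR-144 and miR-451 are neighbours on chromosome 11, with 99 bases between their genes, and both rose. These changes altered the order of abundance, since miR-451 ranked 3rd and 5th of 566 with EE and 25th and 34th with placebo. miR-486 ranked 21st and 22nd with EE, against 43rd and 73rd with placebo. Summed over the 3 miRNAs, the red cell share of the mouse miRNA signal was 6.99% and 6.44% with EE, against 0.921% and 0.428% with placebo.

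Of the 4 tested myeloid miRNAs, 1 rose and 1 fell, beside 10.5% and 15.8% of all tested miRNAs. The list had a median of -0.09 that turned to 0.02 when samples were scaled by housekeeping mRNAs. miR-223, which restrains neutrophil production and activity, had 1984 and 2042 normalized counts with EE, against 1308 and 911 with placebo. Its log2 fold change was 0.88 ± 0.18 (SE, limma adjusted p 0.00424), and the call ended when samples were scaled by the median miRNA, by quantiles or by ligation controls (adjusted p up to 0.181). Both EE values of miR-223 were above both placebo values, as for 26.3% of all tested miRNAs. miR-23a, which favours myeloid over B cell development, had 508 and 509 with EE, against 803 and 758 with placebo, a log2 fold change of -0.62 ± 0.17 (SE, limma adjusted p 0.0186). The genes of miR-23a, miR-27a and a copy of miR-24 are neighbours on chromosome 8, and the other two did not pass, with log2 fold changes of -0.33 for miR-27a (430 and 395 with EE, 566 and 474 with placebo) and 0.15 for miR-24. miR-23b, which has the paralogous locus, stood at -0.07. Of the 4 tested miRNAs of these clusters, miR-23a passed and the rest did not. The miR-23a call ended in 7 of 19 alternative fits.

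The single tested endothelial miRNA and 1 of 2 tested stromal miRNAs were higher with EE, beside 10.5% of all tested miRNAs. miR-126-3p, which supports vessel integrity and lies within the endothelial gene Egfl7, had 154 and 180 normalized counts in the EE samples and 78 and 80 in the placebo samples. This log2 fold change was 1.07 ± 0.19 (SE, limma adjusted p 0.00189), and the call ended only when ligation controls set the scale (adjusted p 0.0728). Its partner arm, miR-126-5p, was not tested, at 12 and 13 with EE and 6 and 4 with placebo. miR-145, a miRNA of smooth muscle, was at 123 in both EE samples, against 85 and 74 with placebo (log2 fold change 0.63 ± 0.19, SE, limma adjusted p 0.0355). Its call ended in 11 of 18 alternative fits, among them scaling by the median miRNA, housekeeping mRNAs, ligation controls or positive controls. miR-125b-5p did not pass, at 82 and 96 with EE and 75 and 71 with placebo. The 6 stromal probes that were not tested reached at most 46 with EE and 47 with placebo.

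miR-93 and miR-15a, both linked to the cell cycle, and miR-148a, which targets DNA methyltransferase 1 and rises in lupus T cells, were among the other rises. miR-93 had 223 and 191 normalized counts with EE, against 100 and 114 with placebo, a log2 fold change of 0.94 ± 0.18 (SE, limma adjusted p 0.00305). miR-148a had 1188 and 1024 with EE, against 718 and 654 with placebo (0.69 ± 0.21, adjusted p 0.0346). miR-15a had 1759 and 1444 with EE, against 1223 and 962 with placebo (0.55 ± 0.18, adjusted p 0.0433). miR-709, of a less well defined role, had 98 and 101 with EE, against 55 and 63 with placebo (0.75 ± 0.20, adjusted p 0.0186). For each of these 4 both EE values were above both placebo values, as for 26.3% of all tested miRNAs. For miR-709 both placebo values were close to the detection floor. The miR-93 call ended under scaling by ligation or positive controls (adjusted p up to 0.107). Those of miR-15a, miR-148a and miR-709 were less firm and ended in 14 of 19, 10 of 19 and 7 of 18 alternative fits.

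**Figure D2:**
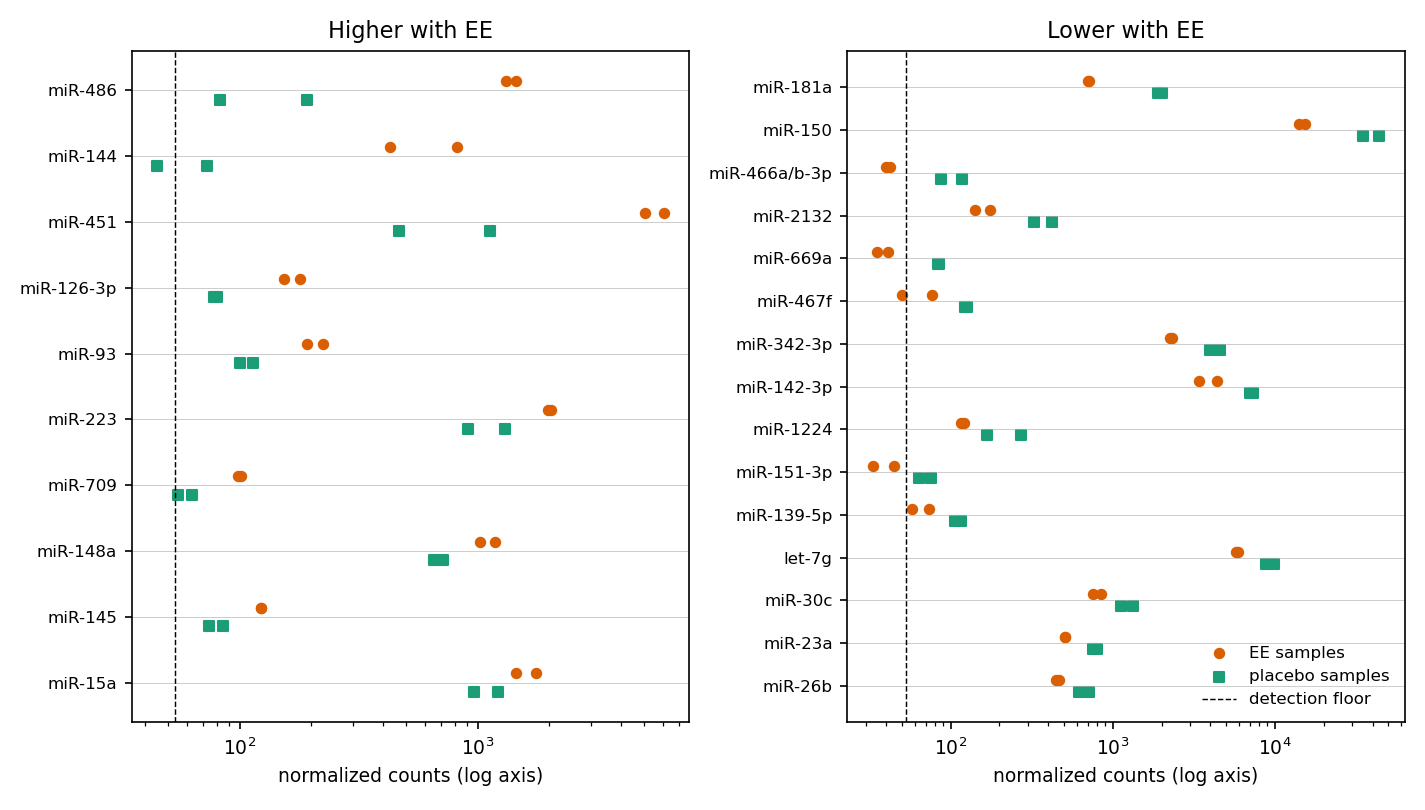
Normalized counts (log axis) of the 10 higher and the 15 lower miRNAs in every EE sample (circles) and placebo sample (squares), ordered by log2 fold change from the largest at the top, with the detection floor of 53.3 as a dashed line. No miRNA shown has overlapping groups, the placebo values of miR-486 and miR-451 are spread widely, and the EE values of miR-466a/b-3p, miR-669a and miR-151-3p lie left of the floor.

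All 3 tested lymphoid miRNAs fell, beside 15.8% of all tested miRNAs, with a median log2 fold change of -1.42. miR-150, which acts on the transcription factor Myb in lymphocyte development, had 15277 and 14140 normalized counts with EE, against 44123 and 35124 with placebo. It remained the most abundant miRNA in all 4 samples, and its log2 fold change was -1.42 ± 0.11 (SE, limma adjusted p 1.18e-05). miR-181a, which tunes the sensitivity of the T cell receptor, had 699 and 718 with EE, against 2022 and 1897 with placebo, a log2 fold change of -1.47 ± 0.17 (SE, limma adjusted p 8.21e-05). miR-342-3p, which lies within the gene Evl, had 2321 and 2258 with EE, against 4616 and 3979 with placebo (-0.90 ± 0.14, adjusted p 8.65e-04). The groups were far apart for each, and no pair differed within itself by more than 0.33 log2 units. The 3 lymphoid probes that were not tested reached at most 48 in either group. Quantile normalization gave miR-150 a difference of 0, because it ranks first in every sample, and the calls of miR-181a and miR-342-3p held there.

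The fall of miR-150 weighed on the total. The summed mouse miRNA signal averaged 112566 with EE and 145193 with placebo, and the difference in miR-150 was 76.4% of this difference. Without miR-150 the sums were 98238 and 97476 with EE, against 107126 and 104013 with placebo, a ratio of 0.927. The 10 most abundant miRNAs held 54.5% and 54.1% of the signal with EE and 66.7% and 65.7% with placebo. Besides miR-150, the top 10 of every sample held miR-16, let-7g, miR-1944, miR-15b, miR-720, miR-142-3p and miR-29a. Of these, let-7g and miR-142-3p fell. The log2 fold changes of the rest, which did not pass, were -0.16 for miR-16, -0.10 for miR-1944, -0.11 for miR-15b, -0.31 for miR-720 and -0.34 for miR-29a. For miR-16 the 95% interval ran from -0.39 to 0.07.

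**Figure D3:**
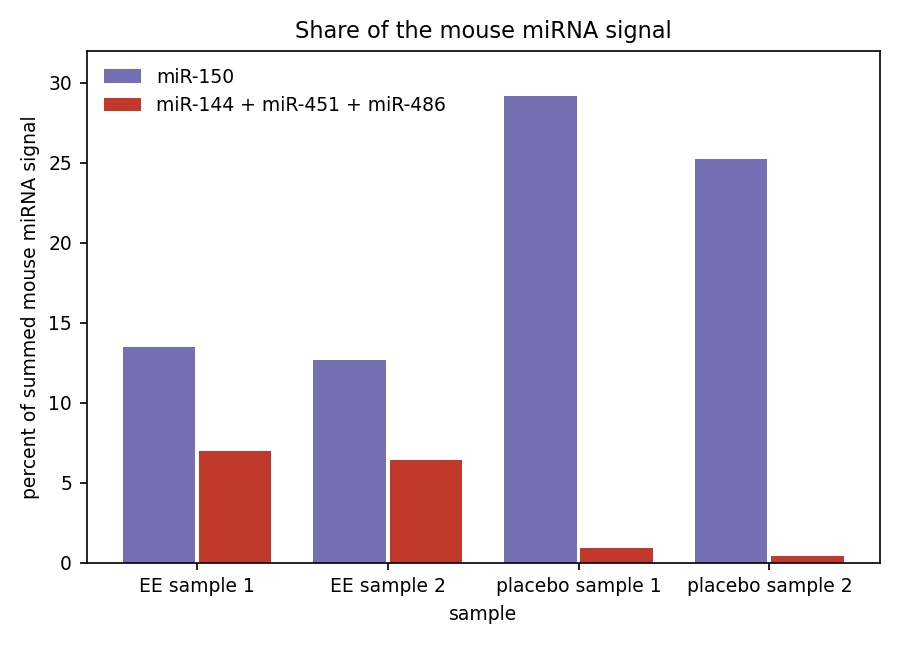
Share of the summed mouse miRNA signal in percent, for miR-150 and for the 3 red cell miRNAs together, in each EE and placebo sample. The miR-150 bars are lower in both EE samples (13.5% and 12.7%) than in the placebo samples (29.2% and 25.2%), and the red cell bars are higher.

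miR-142 is made in all blood cells, and its arms did not move together. miR-142-3p had 3415 and 4366 normalized counts with EE, against 7049 and 7317 with placebo, a log2 fold change of -0.90 ± 0.15 (SE, limma adjusted p 0.00124). miR-142-5p had 125 and 108 with EE, against 93 and 100 with placebo, and did not pass (0.27 ± 0.19, adjusted p 0.343). The hairpin of Mir142 (chr11:87756864-87756927, plus strand) is shown because both arms are cut from it, the 5p arm first and the 3p arm second, each in capitals.
Mir142 hairpin: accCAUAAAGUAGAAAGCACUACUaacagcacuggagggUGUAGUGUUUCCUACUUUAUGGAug

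The ratio of the arms within a sample does not depend on how samples are scaled. For miR-142 the 3p probe gave 27.3 and 40.4 times the 5p signal in the EE samples, against 75.8 and 73.2 times in the placebo samples. After subtraction of each sample's mean negative control the ratios were 34.0 and 51.5 with EE and 107 and 90.9 with placebo. miR-151 had a lower 3p arm too, but the mean of its 3p probe over all samples, 53.333, barely exceeded the floor of 53.283. That probe was above the floor in the placebo samples alone, so it enters the test through them, and its call ended without a filter. miR-151-3p had 45 and 33 with EE, against 76 and 64 with placebo (-0.84 ± 0.24, SE, limma adjusted p 0.0247), while miR-151-5p had 271 and 227 with EE and 222 and 209 with placebo. Its ratio of 3p to 5p was 0.166 and 0.145 with EE, against 0.342 and 0.306 with placebo, with the EE values of the 3p probe under the floor. The log2 ratio differed by -1.16 for miR-142 and by -1.04 for miR-151 (exact permutation test, two-sided p 0.333 for each, n = 2 a group, the smallest p that 2 against 2 samples can give). The other 2 hairpins with both arms tested, miR-125a and miR-423, had overlapping ratios and differences of -0.01 and -0.15 (exact p 1.0 and 0.667). The E2 samples had ratios of 44.5 and 33.2 for miR-142 and 0.187 and 0.248 for miR-151.

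**Figure D4:**
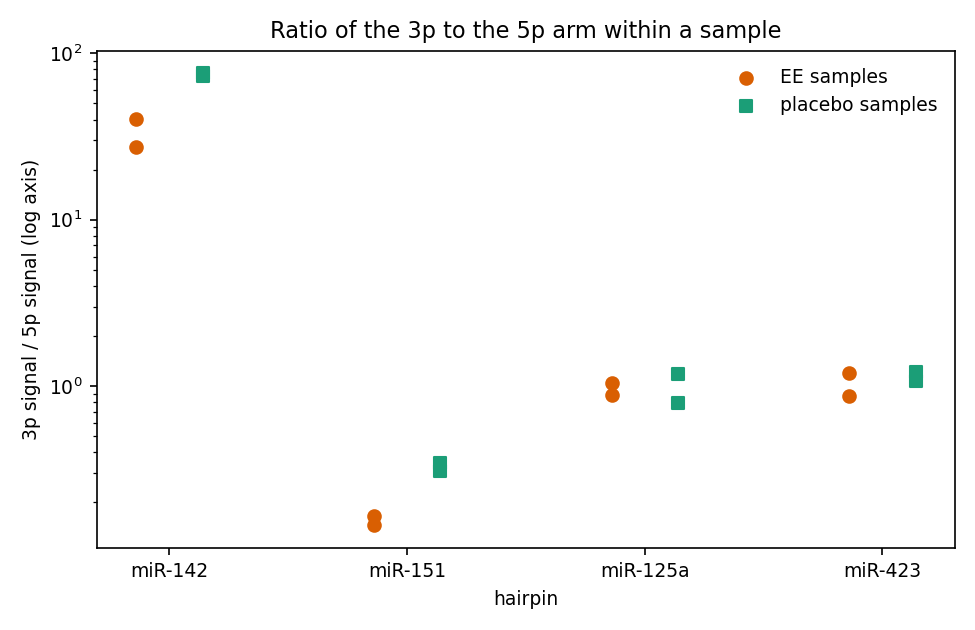
Ratio of the 3p to the 5p signal (log axis) within each EE sample (circles) and placebo sample (squares), for the 4 hairpins with both arms tested. The EE ratios of miR-142 (27.3 and 40.4) and miR-151 (0.166 and 0.145) lie below their placebo ratios, and those of miR-125a and miR-423 overlap.

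The miR-297, miR-466, miR-467 and miR-669 names belong to repeat-derived mouse miRNAs, many of which come from an intron of Sfmbt2 on chromosome 2. Of the 33 panel probes with such names 3 were above the detection floor on average and 30 were not, so no statement on the group as a whole can be made. All 3 are among the called miRNAs, beside 26.3% of all tested miRNAs. However, 2 of them were above the floor in the placebo samples and not in the EE samples, and such a probe enters the test through its high placebo values. A single probe reads miR-466a-3p together with miR-466b-3-3p, and it had 42 and 40 normalized counts with EE, against 118 and 87 with placebo (log2 fold change -1.29 ± 0.22, SE, limma adjusted p 0.00152). miR-669a had 35 and 41 with EE, against 85 and 83 with placebo (-1.13 ± 0.23, adjusted p 0.00424), and miR-467f had 77 and 50 with EE, against 122 and 127 with placebo (-0.99 ± 0.23, adjusted p 0.00916). By the RefSeq gene table Mir467f does not lie in Sfmbt2 but within Fxr2 on chromosome 11. Both EE values of the miR-466a-3p and miR-669a probes and 1 EE value of miR-467f were under the floor, so the sizes of the falls are uncertain. Among the 30 such probes that were not tested, 5 had both EE samples below both placebo samples, 3 had them above and 22 overlapped. Over all 471 probes that were not tested these counts were 28, 87 and 356. miR-467b, one of the 5, had 32 and 27 with EE and 60 and 59 with placebo.

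The remaining falls were in miRNAs of mixed roles. miR-2132 had 141 and 176 normalized counts with EE, against 419 and 326 with placebo (log2 fold change -1.23 ± 0.20, SE, limma adjusted p 0.00105). Its groups did not overlap, as for 63.2% of all tested miRNAs. miR-1224, which lies within Vwa5b2, had 120 and 115 with EE, against 273 and 167 with placebo (-0.86 ± 0.23), and miR-139-5p, which lies within Pde2a, had 73 and 58 with EE, against 107 and 115 with placebo (-0.76 ± 0.20). The adjusted p of both was 0.0186. let-7g, within Wdr82, had 5958 and 5795 with EE, against 9936 and 8863 with placebo (-0.68 ± 0.13, adjusted p 0.00313), miR-30c had 846 and 754 with EE, against 1340 and 1129 with placebo (-0.62 ± 0.17), and miR-26b, within Ctdsp1, had 447 and 466 with EE, against 621 and 715 with placebo (-0.54 ± 0.18, adjusted p 0.0433). The let-7g call ended in 5 alternatives, with scaling by the median miRNA, quantiles, housekeeping mRNAs or ligation controls and without a filter, where its log2 fold change came as near to 0 as -0.14 and its adjusted p reached 0.340. The calls of miR-26b, miR-1224 and miR-30c ended in 12, 7 and 7 of 19 alternatives, and that of miR-139-5p in 5 of 18. In all 6 miRNAs the lowest placebo sample was above the highest EE sample, as for 36.8% of all tested miRNAs.

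Members that share a seed were set side by side, and differences between members were not tested. Among the tested probes with a sequence, 32 fell into 9 groups that share a seed. In 6 of these groups a single member was called, and no group had all of its members called or calls in both directions. Counted by probe, 6 of the 32 were called, beside 25 of all 95 tested (26.3%). In the let-7 seed group let-7g alone passed of 9 probes; the rest ran from -0.35 for let-7a to -0.03 for let-7e, and miR-98 stood at -0.33. The median was -0.17, below 0 in every scaling tried. The median over all 95 tested miRNAs, -0.11, was also below 0 in each, so this sign does not set the group apart. Added up, the 9 probes gave 17803 and 19018 normalized counts with EE, against 23936 and 23219 with placebo.

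The seed group of miR-93, miR-106b, miR-106a and miR-17 (1 probe) and miR-20a and miR-20b (1 probe) had 1 call, miR-93, and a median of 0.44 that stayed above 0 in every scaling. miR-106b had 240 and 254 normalized counts with EE, against 144 and 224 with placebo (log2 fold change 0.46), the miR-106a and miR-17 probe stood at 0.42, and the miR-20a and miR-20b probe at 0.12. Their sum was 3596 and 3292 with EE, against 3046 and 2657 with placebo. miR-93, miR-106b and miR-25 are neighbours in the gene Mcm7 with 118 and 126 bases between them, and miR-25, with a different seed, had a log2 fold change of 0.35 (2803 and 2566 with EE, 2339 and 1884 with placebo) that did not pass. In the cluster of miR-17, 4 probes were tested and none passed, beside 26.3% called over all tested miRNAs. Their median was 0.37, with miR-19a at 0.45 and miR-19b at 0.32.

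In the seed group of miR-15a and miR-16, miR-15a rose while miR-16 (-0.16), miR-15b (-0.11) and miR-322 (0.17) did not pass. The genes of miR-15a and 1 of the 2 copies of miR-16 are 54 bases apart on chromosome 14. Because miR-16 and miR-15b are far more abundant, the group's sum was 16903 and 15656 with EE and 17562 and 17039 with placebo, in the direction opposite to miR-15a. The group's median of 0.03 turned to -0.18 with ligation controls and to -0.11 with positive controls.

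In the seed group of miR-148a the sum was 1363 and 1179 with EE, against 874 and 815 with placebo. Its member miR-152 had 74 and 54 normalized counts with EE, against 48 and 45 with placebo (0.44, adjusted p 0.201), and miR-148b had 101 in both EE samples and 108 and 116 with placebo (-0.15). Among the 5 tested miR-30 probes miR-30c alone passed, with a median of -0.34, miR-30b at -0.41 and miR-30d at -0.34. miR-26a stood at -0.15 beside the called miR-26b. No member passed in the miR-29 family (3 tested, median -0.20), beside 26.3% called over all tested miRNAs. Its values were -0.34 for miR-29a, -0.20 for miR-29b and 0.08 for miR-29c. The medians of the miR-29, miR-30 and miR-26 families stayed below 0 in each scaling tried, and so did the median over all tested miRNAs (-0.11).

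**Figure D5:**
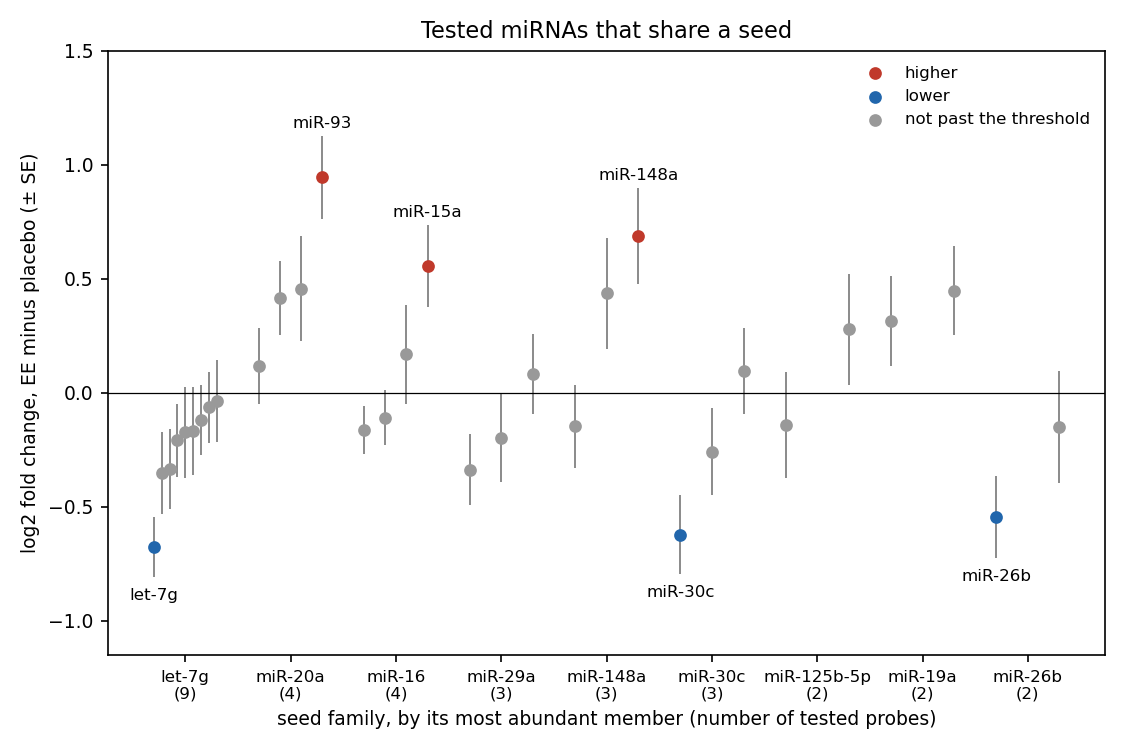
Log2 fold change (EE minus placebo) with SE for the 32 tested probes that share a seed with another tested probe, grouped by seed and named by the most abundant member. Coloured points passed the threshold; in 6 of the 9 groups a single member did, and in the rest none.

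None of the 3 tested immune regulators linked to NF-kB passed. Over all tested miRNAs 26.3% were called, so a list of 3 is too short to be set apart. miR-146a, which dampens Toll-like receptor signals, had 2658 and 2990 normalized counts with EE, against 3604 and 3560 with placebo (log2 fold change -0.35, 95% interval -0.68 to -0.01, limma adjusted p 0.128). miR-21 stood at 0.09 (-0.24 to 0.42). miR-155, which promotes B cell and T cell responses and is reported as raised in lupus-prone spleens, had 20 and 159 with EE, against 111 and 204 with placebo. It differed more within the EE pair than any other tested miRNA, and the value of 20 was under the floor. Its log2 fold change of -1.39 had an interval of -2.96 to 0.19 (adjusted p 0.172). Of the other 6 miRNAs on the list of those reported higher in lupus-prone spleens, none was tested, and their highest value was 31 with EE and 38 with placebo. Of 58 probes of the imprinted Dlk1-Dio3 cluster only miR-376a was tested, at 159 and 82 with EE and 26 and 80 with placebo (1.30, interval -0.33 to 2.93, adjusted p 0.201).

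The largest changes that did not pass but did not overlap, besides miR-376a, miR-106b, miR-19a and miR-152, were those of the miR-1937a and miR-1937b probe (0.48), miR-28 (-0.53), miR-10a (-0.49), miR-340-5p (-0.47), miR-532-5p (-0.47) and miR-350 (-0.42). Counting probes rather than fold changes, 2 lay above the floor in both EE samples and at or below it in both placebo samples, miR-152 and miR-196b. miR-196b, a miRNA of the HOX gene clusters that was too low on average to be tested, had 62 in both EE samples, against 26 and 16 with placebo. The opposite pattern was found for 4 probes: miR-151-3p, miR-467b, miR-669a and the combined miR-466a-3p probe. Markers of other tissues were low, and 1 of their probes that were not tested, an epithelial one, passed the floor in any of the 4 samples. The 6 muscle probes summed to 95 and 65 with EE and 72 and 65 with placebo, the 4 pancreas probes to 55 and 33 with EE and 40 and 42 with placebo, and the liver miRNA miR-122 had 5 and 7 with EE and 2 and 3 with placebo. The epithelial list had 1 tested member, miR-200c, at -0.19, and its 7 probes summed to 247 and 205 with EE and 254 and 250 with placebo.

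The calls differed in how firmly they stood. The calls of miR-486, miR-144, miR-451, miR-181a, miR-342-3p, miR-142-3p, miR-2132, miR-669a and the combined miR-466a-3p probe held in every alternative fit that included them. That of miR-150 held in all but quantile normalization. The miR-669a and combined miR-466a-3p probes had both EE values under the floor and entered the test through their placebo values. The filter at a mean of at least 100 left both probes out. Leaving out EE sample 2 ended 11 calls, those of miR-1224, miR-139-5p, miR-145, miR-148a, miR-151-3p, miR-15a, miR-23a, miR-26b, miR-30c, miR-467f and miR-709 (limma adjusted p 0.0526 to 0.144), and leaving out EE sample 1 ended 7, all among these 11 (adjusted p 0.0541 to 0.304). Without EE sample 2, miR-155 passed, with a log2 fold change of -2.85. Without placebo sample 1, miR-25 (0.51), miR-29a (-0.49) and miR-30b (-0.73) passed, and without placebo sample 2, miR-106b (0.77), the miR-1937a and miR-1937b probe (0.72), miR-376a (2.09) and miR-2140 (-0.70) did. With housekeeping mRNAs or positive controls as the scale, miR-155 and miR-376a passed too. Without placebo sample 1 the calls of miR-1224, miR-151-3p, miR-23a, miR-30c and miR-709 ended (adjusted p 0.0502 to 0.135), and without placebo sample 2 those of miR-139-5p, miR-145, miR-148a, miR-151-3p, miR-15a and miR-26b (adjusted p 0.0511 to 0.172). The E2 samples also mattered through the shared spread. With E2 sample 1 or E2 sample 2 left out alone, the calls of miR-145, miR-15a and miR-26b ended. Without E2 sample 2 that of miR-151-3p ended too. With both E2 samples left out, the calls of miR-15a and miR-26b ended (limma adjusted p 0.0539 to 0.0730) and that of miR-145 held. miR-15a, miR-26b, miR-145 and miR-148a lost their calls in 14, 12, 11 and 10 alternatives, miR-151-3p in 8, miR-1224, miR-23a, miR-30c and miR-709 in 7 each, miR-139-5p in 5 and miR-467f in 3.

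In the contrast of EE with E2, 7 of the 95 tested miRNAs passed (7.37%), and 6 of these are among the 25 called against placebo. Both contrasts use the same EE samples, so nothing is read from this overlap. The duration of treatment was the same, but the labels give no doses, so matched doses cannot be shown. miR-126-3p and miR-145 were higher with EE than with E2 by 0.80 and 1.01 log2 units (limma adjusted p 0.0320 and 0.0121), at 154 and 180 with EE, against 103 and 88 with E2, for miR-126-3p. miR-145 was at 123 in both EE samples, against 58 and 63 with E2. The one not called against placebo, miR-125b-5p, was higher with EE than with E2 by 1.25 (limma adjusted p 0.0121). It was at 82 and 96 with EE, against 30 and 45 with E2, both under the floor. miR-150, miR-181a and the combined miR-466a-3p probe were lower with EE than with E2, with differences of -0.67, -0.76 and -0.88 (adjusted p 0.0117, 0.0260 and 0.0320). miR-223 was lower with EE, at 1984 and 2042, against 3522 and 3244 with E2 (-0.75, adjusted p 0.0320). The red cell miRNAs were not shown to differ, with differences of 0.49 for miR-486, 0.67 for miR-144 and 0.69 for miR-451 (adjusted p 0.234 to 0.379).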

How the data were processed

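Total RNA of splenocytes was profiled by NanoString with version 1.5 of the nCounter mouse miRNA kit, based on miRBase 15, per the labels' protocols and design text. The authors deposited a whole-number score for each probe in each sample, and no source used here describes how they scaled, background-corrected or rounded it. The scores were treated as already normalized, and no count model was fitted. Scaling by the 100 highest miRNAs moved the median log2 fold change by 0.0077, which does not show that samples within a group share a scale. Relative to the mean over all samples, the median tested miRNA lay between -0.125 log2 units in E2 sample 1 and 0.157 in placebo sample 2. Raw depth is unknown, so no counting intervals are given.

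limma (version 3.58.1, R 4.3.3) fitted log2(value + 1) with lmFit and trended eBayes, and all fold changes are on that scale. The pseudocount of 1 slightly understates changes of low probes. No background was subtracted in the main fit, and subtracting it gave larger falls for the miR-466a-3p probe and miR-669a. The fit held all 6 samples in 3 groups (7.50 prior and 10.5 total degrees of freedom), with the contrasts EE minus placebo and EE minus E2. Tests were two-sided, with Benjamini-Hochberg adjustment over 95 probes and a threshold of 0.05. The fit was tested on simulated data. An exact permutation test was used for ratios of hairpin arms. Single-sample ranks and shares are over 566 mouse probes.

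Members, lists and tests were chosen with earlier results of these data known. The naming rule took every called miRNA, the 5 largest non-overlapping changes not called in each direction, the members of lists of up to 4 tested probes, the first 3 by p of longer lists, the 3 largest differences within a pair, the 10 most abundant miRNAs and probes that crossed the floor. The ratios of arms and the seed groups were added after the values were seen. Lists of cell markers and families came from background knowledge. RefSeq tables (GRCm38.p6) gave sequences, hosts and neighbours. The arm of an older name without an arm was taken from general knowledge. let-7e, miR-126-5p, miR-122 and the partner arms were also named after their values were seen. Alternatives were 6 other scalings, a background subtraction, a pseudocount of 10, other filters, other variance models and leaving out each sample.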

Additional observations from a re-analysis of the deposited data

How the results depend on the processing

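Of 19 alternative fits, 6 left out a sample. The midpoint of the fold changes moved by 0.11 log2 units with housekeeping mRNAs, by -0.20 with ligation controls and by -0.14 with positive controls. The 10 higher and 15 lower calls became 6 and 9 with scaling by the median miRNA, 7 and 9 with housekeeping mRNAs, 3 and 8 with ligation controls and 6 and 15 with positive controls. They were 7 and 7 without a filter, which tests 566 probes, and 6 and 10 with a mean of at least 100, which tests 71. Leaving out a sample gave 6 to 10 higher and 9 to 14 lower calls. Quantile normalization gave miR-15b a rise of 0.12 in place of -0.11. Probes above the floor with EE alone numbered 1 with the floor at the highest negative control, in place of 2, and those with placebo alone 2 with a floor at the mean + 3 SD, in place of 4. Every change counted as lost kept its direction, apart from miR-150 at 0 under quantile normalization. No paired analysis was possible because the groups share no replicate numbers in the labels. Values under the floor of 53.3 with EE limit the sizes of the falls of the miR-466a-3p probe, miR-669a, miR-151-3p and miR-467f. After background subtraction the falls of the miR-466a-3p probe (-2.18) and miR-669a (-2.13) were larger than that of miR-181a, so the order of the falls depends on this choice.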
